A study of Mus musculus with 5 samples.

Results

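Libraries of 2 depths were compared across miRNAs of extracellular vesicles (EVs). The members were chosen by the measured total miRNA count of each library: 2 of the 5 libraries held fewer than 500000 counts and are called shallow, and the other 3 are called deep. The shallow libraries were not freeze-dried replicate 2, with 131507 counts, and freeze-dried replicate 3, with 192450. The deep libraries were not freeze-dried replicate 1, with 912080 counts, freeze-dried replicate 1, with 2914305, and freeze-dried replicate 2, with 2473178. The totals nearest to the threshold were therefore 192450 below it and 912080 above it. The classes cross the study's own groups, since each class holds a library of either label.

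All EVs came from murine mesenchymal stem cells of C57BL/6-GFP transgenic mice that had spent 48 h in reduced-serum medium. The medium was filtered, and spinning at 100000 g for 110 min brought down the small EVs. The freeze-dried EVs were frozen at -80 °C in 25 mM trehalose, dried overnight and rehydrated for 1 h. Not freeze-dried EVs went to RNA extraction without drying, and which of the storage buffers they were in is not given in the sources used here. All libraries were small RNA libraries selected for a size of 126 to 169 bp. The labels do not give separate cultures or animals for the replicates. A p-value here therefore measures only how these samples spread, which may be technical. The division by depth was made after these data had been examined and shallow and deep libraries were known to stand apart. The tests treat it as given, so their p-values describe these 5 libraries.

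Cells shed EVs, small lipid-bound particles, which carry RNA and protein to other cells or into body fluids. A miRNA is cut as a short duplex from a hairpin, and the strand that is kept guides a protein complex to messenger RNAs, chiefly through bases 2 to 8, the seed. miRNAs with the same seed form a family and share many targets, while hairpins that lie close together form a genomic cluster and are often cut from 1 transcript. Vesicles of mesenchymal cells are known for abundant let-7, miR-21, miR-125b and miR-143.

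The sequences below belong to the miRNAs that passed the test between shallow and deep libraries, with relatives of the same seed set beside them. They are RefSeq entries of GRCm38.p6, written 5′ to 3′ with the seed in capitals. Of the 327 tested miRNAs, 273 matched that table by name.
miR-146a-5p: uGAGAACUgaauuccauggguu
miR-146b-5p: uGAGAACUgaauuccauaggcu
miR-92a-3p: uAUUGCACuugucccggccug
miR-92b-3p: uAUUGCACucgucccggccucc
miR-25-3p: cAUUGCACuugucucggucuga
miR-10a-5p: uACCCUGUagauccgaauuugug
miR-10b-5p: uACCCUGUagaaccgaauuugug
miR-100-5p: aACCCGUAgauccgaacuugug
miR-99a-5p: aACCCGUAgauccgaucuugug
miR-99b-5p: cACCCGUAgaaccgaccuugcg
miR-29a-3p: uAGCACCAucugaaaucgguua
miR-29b-3p: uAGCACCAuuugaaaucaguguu
miR-351-5p: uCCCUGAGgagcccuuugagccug
miR-125b-5p: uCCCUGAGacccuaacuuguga
Positions in substitutions are counted from 1 at the 5′ end of the miRNA named first, without gaps. miR-146b-5p differed from miR-146a-5p by G18A and U21C. miR-92b-3p differed from miR-92a-3p by U10C and G21C, and miR-25-3p by U1C, C14U and C18U. miR-10b-5p differed from miR-10a-5p by U12A alone. miR-99a-5p differed from miR-100-5p by A16U alone. None of these changes lies in the seed, and the authors' counting could have split reads of such near copies in ways the counts do not show.

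The other miRNAs that passed the test have no relative shown here. They are printed because 1 belongs to the called X-chromosomal cluster and the others are late miRBase entries (number 1000 or above), a class that holds many annotations of uncertain origin.
miR-322-3p: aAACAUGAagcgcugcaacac
miR-3069-3p: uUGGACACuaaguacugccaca
miR-6240: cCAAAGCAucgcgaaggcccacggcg
miR-6236: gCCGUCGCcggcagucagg
miR-6240 shares its seed with miR-330-3p, which was not called. miR-6240 and miR-6236 had GC contents of 69.2% and 78.9%, against a median of 50.0% over the 273 miRNAs with a sequence.

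Of 327 miRNAs tested with edgeR's quasi-likelihood test with freeze-drying as a term, 5 were called higher and 5 lower in shallow libraries, at a Benjamini-Hochberg adjusted p under 0.05. That is 3.06% of those tested in either direction and 1.53% higher. At an unadjusted p under 0.05 there were 38. TMM-normalised values scaled to library size (CPM) did not overlap between the classes for 101 miRNAs, or 30.9%. The median log2 fold change was 0.03 (-0.36 with upper-quartile normalization), with 168 miRNAs above 0 and 159 below. The called miRNAs were miR-146a-5p, miR-3069-3p, miR-6236, miR-6240 and miR-92a-3p on the higher side, and miR-10a-5p, miR-322-3p, miR-100-5p, miR-351-5p and miR-29a-3p on the lower side. With that other normalization the split was 5 higher and 10 lower. A level here is a share of what its library holds, and fewer vesicles of a kind or less of a miRNA per vesicle cannot be told apart.

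**Figure D1:**
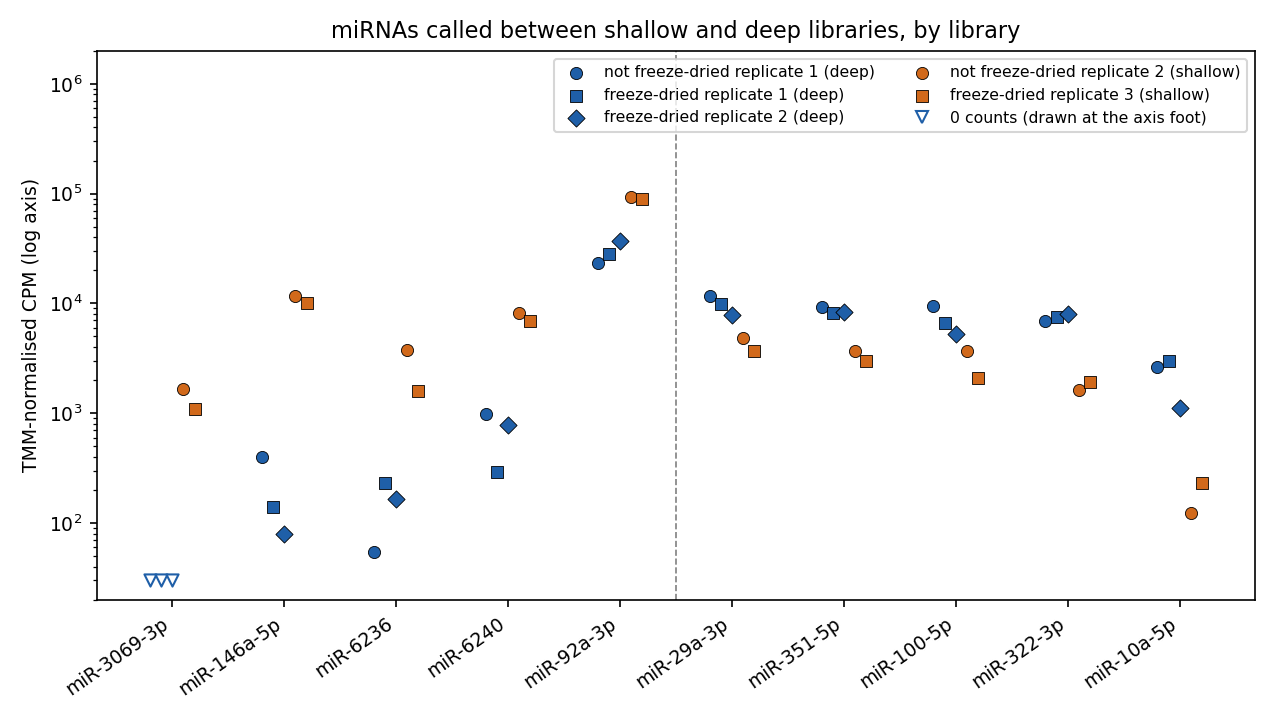
Points show TMM-normalised CPM (vertical log axis) of the 10 called miRNAs in each library, blue for the 3 deep and orange for the 2 shallow libraries. The miRNAs left of the dashed line were higher and those right of it lower in shallow libraries, and the classes do not overlap for any of the 10. Open triangles mark the deep libraries in which miR-3069-3p had 0 counts.

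Of the called miRNAs with counts in every library, the largest fitted rise was that of miR-146a-5p, an NF-κB-induced miRNA that restrains inflammatory signalling. It had 11713 CPM in not freeze-dried replicate 2 and 9987 in freeze-dried replicate 3, both shallow. In the deep libraries it had 402 CPM in not freeze-dried replicate 1, 139 in freeze-dried replicate 1 and 78.9 in freeze-dried replicate 2. All shallow values lay above all deep ones. The fitted fold was 57.6 (log2 5.85, SE 0.46, 95% interval 4.77 to 6.92; edgeR adjusted p = 0.000576, n = 5). Its share of counts was 1.16% (exact Clopper-Pearson 95% interval 1.10 to 1.22) and 0.911% (0.869 to 0.955) in the shallow libraries, and at most 0.0450% (0.0407 to 0.0495) in a deep one. With freeze-dried replicate 1 left out its adjusted p was 0.141, and with freeze-dried replicate 3 left out 0.283, at log2 fold changes of 5.90 and 4.72. Without not freeze-dried replicate 1 or 2 the log2 fold change was 6.53 or 6.45.

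Its relative miR-146b-5p, from a hairpin in an intron of Mfsd13a at chr19:46342762-46342870, was also higher in both shallow libraries but was not called. It stood at 1211 and 1480 CPM in the shallow libraries, and at 410, 423 and 266 CPM in not freeze-dried replicate 1 and freeze-dried replicates 1 and 2. Its log2 fold change was 1.88 (SE 0.45; edgeR adjusted p = 0.0775). Within a library, where no scaling enters, the raw counts of miR-146a-5p were 9.67 and 6.75 times those of miR-146b-5p in the shallow libraries. In the deep libraries the same ratio was 0.981, 0.328 and 0.297. miR-146a-5p was thus the more counted of the pair in the shallow libraries and the less counted in the deep ones. The miR-146a hairpin lies at chr11:43374397-43374461, outside other genes on its strand in GENCODE M21.

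miR-146a-5p is abundant in leukocytes, so a list of leukocyte miRNAs was set beside it. Of its 5 tested members 4 had a log2 fold change above 0 and none was called, with a median of 1.36. Their summed share was 0.245% and 0.251% in the shallow and 0.110% to 0.196% in the deep libraries. Both arms of miR-142a, the miRNA that marks blood cells most widely, had 0 counts in all 5 libraries. miR-223-3p of myeloid cells had 0 and 16 counts in the shallow libraries and 97, 40 and 0 in the deep ones. miR-155-5p had 1127 and 1418 CPM in the shallow libraries and 258, 850 and 837 in the deep ones (log2 fold change 1.36, SE 0.46; edgeR adjusted p = 0.221). The part of the list in the miR-146a-5p difference was not tested.

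miR-92a-3p, of the miR-17~miR-92 cluster known for its role in proliferation and vessel growth, was the most abundant of the called miRNAs. It stood at 94003 and 90089 CPM in the shallow libraries, and at 23411, 28313 and 37180 CPM in not freeze-dried replicate 1 and freeze-dried replicates 1 and 2. The fitted fold was 3.24 (log2 1.70, SE 0.25, interval 1.12 to 2.28; edgeR adjusted p = 0.0103). It was the leading miRNA of not freeze-dried replicate 2, with 9.32% of its counts, while let-7c-5p led the other 4 libraries. Hairpins for it lie at chr14:115044427-115044506, in an exon of Mir17hg, and at chrX:52741838-52741928.

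The other hairpins of the miR-17~miR-92 cluster were scarce and not called. The summed counts of the cluster without miR-92a-3p, which also comes from a second locus, had a log2 fold change of 0.87 (SE 0.64; edgeR adjusted p = 0.763) and overlapped between the classes. miR-17-5p had 161 and 148 CPM in the shallow libraries against 182, 52.8 and 89.0 in the deep ones. miR-20a-5p, also of this cluster, had 2 and 37 counts against 35, 154 and 113.

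Within the seed family, miR-92b-3p lay on the side of miR-92a-3p without passing the test, and miR-25-3p overlapped between the classes. miR-92b-3p, from chr3:89227116-89227198, had 1663 and 1776 CPM in the shallow libraries against 632, 377 and 619 in the deep ones, a log2 fold change of 1.65 (SE 0.38; edgeR adjusted p = 0.0734). miR-25-3p, from an exon of Mcm7 at chr5:138165321-138165404, had 14511 and 12800 CPM in the shallow against 10958, 14344 and 12479 in the deep libraries. That is a log2 fold change of 0.14 with an SE of 0.24 (interval -0.41 to 0.69), whose sign turned under some settings. The ratio of miR-92a-3p to miR-25-3p in raw counts was 6.48 and 7.04 in the shallow and 2.14, 1.97 and 2.98 in the deep libraries. That of miR-92a-3p to miR-92b-3p overlapped, at 56.5 and 50.7 against 37.0, 75.2 and 60.1. The miR-106b~miR-25 cluster, a paralog of miR-17~miR-92, took between 1.50% and 1.92% of counts in every library, with overlapping classes.

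**Figure D2:**
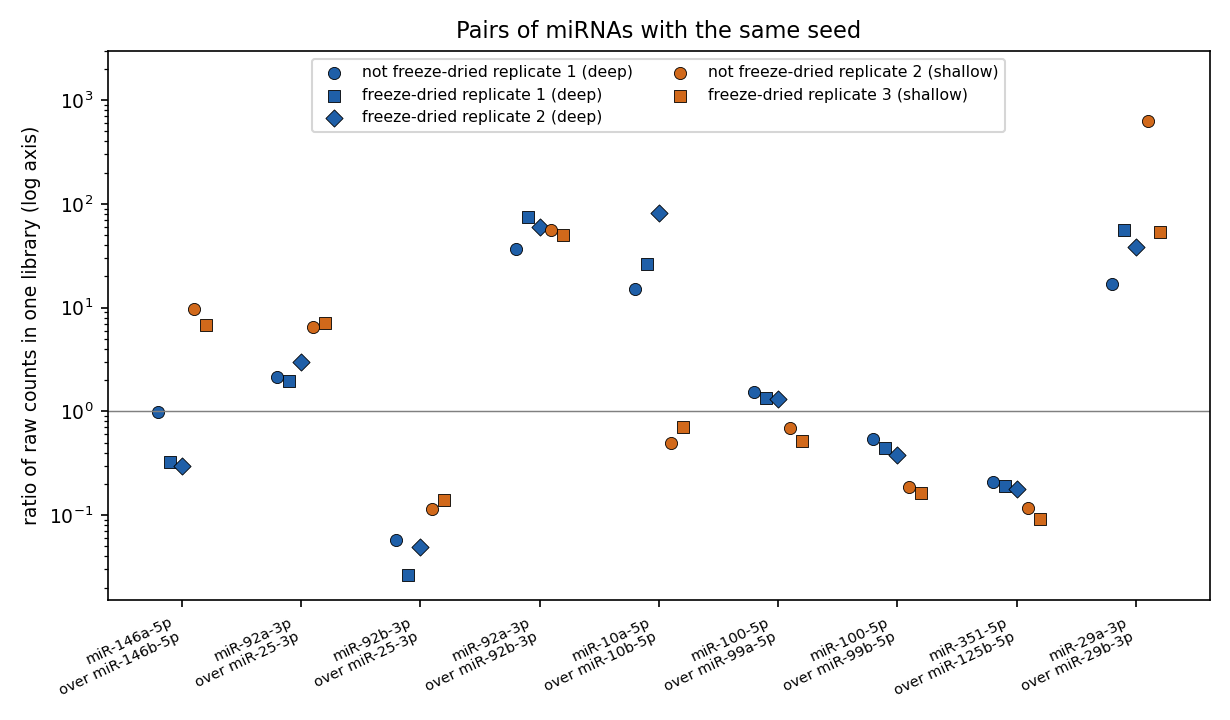
Each point is the ratio of raw counts of a pair of miRNAs with the same seed within 1 library (vertical log axis), blue for deep and orange for shallow libraries. The classes are apart in 7 of the 9 pairs drawn, and overlap for miR-92a-3p over miR-92b-3p and for miR-29a-3p over miR-29b-3p. Except for miR-92b-3p, the miRNAs in the numerators were called on these same libraries, so this count is a description and no separate support.

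miR-10a-5p, which lies in the Hoxb gene cluster and is linked to positional identity of cells, had the largest fitted fall of the called miRNAs. It had 16 and 41 counts in the shallow libraries, or 123 and 233 CPM, against 2635, 3012 and 1111 CPM in not freeze-dried replicate 1 and freeze-dried replicates 1 and 2. It was 12.6-fold lower in shallow libraries (log2 -3.65, SE 0.59, interval -5.03 to -2.28; edgeR adjusted p = 0.0162), and the log2 fold change was -4.57 without freeze-dried replicate 3. Its hairpin lies at chr11:96317165-96317274. miR-10b-5p, which differs from it by 1 base and lies among Hoxd genes at chr2:74726070-74726137, was on the other side and not called. It had 245 and 330 CPM in the shallow and 175, 115 and 13.6 in the deep libraries, from 32 and 58 counts in the shallow ones (log2 fold change 1.61, SE 1.30; edgeR adjusted p = 0.769). miR-10a-5p counts were 0.5 and 0.707 times those of miR-10b-5p in the shallow libraries, and 15.1, 26.1 and 81.7 times in the deep ones.

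miR-100-5p, which represses mTOR signalling genes, had 3649 and 2107 CPM in the shallow libraries against 9496, 6599 and 5231 in the deep ones. It was 2.72-fold lower (log2 -1.44, SE 0.25, interval -2.03 to -0.86; edgeR adjusted p = 0.0175). Its relatives of the same seed overlapped between the classes. miR-99a-5p, from an intron of Mir99ahg at chr16:77598936-77599000, stood at -0.18 on the log2 fold change scale (SE 0.24, 95% interval -0.73 to 0.37). miR-99b-5p, from an intron of Spaca6 at chr17:17830188-17830257, stood at -0.02 (SE 0.23, 95% interval -0.54 to 0.50), and its sign turned under some settings. The ratio of miR-100-5p to miR-99a-5p was 0.697 and 0.521 in the shallow and 1.53, 1.36 and 1.32 in the deep libraries. The miR-100 hairpin lies at chr9:41531425-41531504, in introns of the non-coding genes 3110039I08Rik and Gm49317. miR-125b-5p, whose hairpin at chr9:41581926-41582002 shares that host but which has another copy on chromosome 16, had a log2 fold change of -0.49 (SE 0.22; adjusted p = 0.414).

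miR-29a-3p, a repressor of collagen and other matrix genes, had 4791 and 3667 CPM in the shallow libraries against 11665, 9777 and 7813 in the deep ones. It was 2.41-fold lower (log2 -1.27, SE 0.24; edgeR adjusted p = 0.0283). miR-29b-3p lay on the same side without passing the test, with 1 and 12 counts in the shallow and 710, 479 and 522 in the deep libraries (95% interval of the log2 fold change -6.32 to 0.31; adjusted p = 0.486). Their ratio overlapped between the classes, at 625 and 53.7 in the shallow and 16.7, 56.1 and 38.5 in the deep libraries. The miR-29a hairpin lies at chr6:31062660-31062747, outside other genes on its strand, and 1 of the hairpins of miR-29b lies beside it at chr6:31063023-31063093.

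The genomic group with the lowest adjusted p was the miR-322miR-503miR-351 cluster, with 7 hairpins at chrX:53047997-53054349 on the minus strand. miR-322 is the mouse counterpart of human miR-424, and its 5p arm carries the seed of miR-15/miR-16, a family that slows the cell cycle. All 9 tested members had a log2 fold change below 0, their median was -2.03 against 0.03 over all tested miRNAs, and 2 were called. Over all 327 tested miRNAs 159 were below 0 and 5 were called lower. The 9 members share the same 5 libraries, so they do not count as separate observations. miR-322-3p had 1640 and 1930 CPM in the shallow libraries against 6846, 7482 and 7970 in the deep ones. It was 4.07-fold lower (log2 -2.03, SE 0.25, interval -2.59 to -1.46; edgeR adjusted p = 0.00357).

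miR-351-5p of the same cluster, which carries the seed of miR-125, had 3664 and 3018 CPM in the shallow libraries against 9292, 8184 and 8403 in the deep ones. It was 2.65-fold lower (log2 -1.41, SE 0.24; edgeR adjusted p = 0.0167). The more abundant miR-125a-5p, with the same seed at another locus, had a log2 fold change of -0.28 (SE 0.24; adjusted p = 0.812). miR-503-5p had 291 and 262 CPM against 710, 884 and 2166 and was not called (log2 fold change -1.99, SE 0.60; adjusted p = 0.177), nor was miR-322-5p, with 1 and 11 counts against 205, 1325 and 398. The cluster as a sum took 0.682% and 0.505% of counts in the shallow libraries and 2.06%, 1.70% and 2.09% in the deep ones.

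Counts were also summed by genomic cluster and tested in the same way. Of 36 clusters 3 were called, or 8.33%, all lower in shallow libraries. The miR-322miR-503miR-351 sum was 3.15-fold lower (log2 -1.65, SE 0.22; edgeR adjusted p = 0.00443). The sums called miR-100~miR-125b and miR-29a~miR-29b held only arms of miR-100 and miR-29a. They had log2 fold changes of -1.47 (SE 0.23; adjusted p = 0.0119) and -1.30 (SE 0.22; adjusted p = 0.0135), and say nothing of the neighbouring hairpins. miR-125b-1-3p, whose name ties it to the hairpin beside miR-100, was not in the sum and stood at -0.25 (SE 0.24, interval -0.81 to 0.31; adjusted p = 0.817). Without not freeze-dried replicate 1 the adjusted p of these 2 sums was 0.0625 and 0.114, and without freeze-dried replicate 3 none of the 3 was called (lowest adjusted p 0.412). The miR-23b~miR-27b cluster, which was not called, had all 4 tested members lower without overlap, beside 30.9% of all tested miRNAs without overlap in either direction, led by miR-27b-3p at 5535 and 4994 CPM against 8202, 7318 and 7516. Its members miR-23b-5p and miR-27b-5p had 0 counts in the shallow libraries and passed the count filter only through the deep ones. Its sum had a log2 fold change of -0.52 (SE 0.20; adjusted p = 0.262).

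Counts were summed by family as well, grouped by miRNA name over both arms, so a sum can hold more than 1 seed. miR-322-3p fell in the miR-15/miR-16 sum, and miR-351-5p in none. Of 69 families 7 were called, or 10.1%, with 2 higher and 5 lower. With upper-quartile normalization the split was 2 and 14, and with relative log expression (RLE) size factors 2 and 9. The median log2 fold change of families was -0.12. The higher ones were the miR-146 family at 4.35 (SE 0.32; edgeR adjusted p = 6.28e-16) and the miR-25/miR-92 family at 1.36 (SE 0.27; adjusted p = 0.000300). From 5 libraries, so small a p depends on how the family fit shares spread across features. For miR-146a-5p, at a larger log2 fold change of 5.85, the edgeR adjusted p was 0.000576. That of the miR-146 family was 7.61e-08 with total counts only. Its log2 fold change was 3.90 to 4.58 with 1 library left out. The lower ones included the miR-10 family at -2.37 (SE 0.46; adjusted p = 0.000257) and the miR-29 family at -1.30 (SE 0.29; adjusted p = 0.000955). Each of these 4 is carried by a called miRNA described above.

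The other 3 lower families held no called miRNA. Their members miR-140-3p, miR-148a-3p and miR-503-5p had fitted falls at least as large as the sums and SEs near theirs. In the fit of single miRNAs their edgeR adjusted p was 0.154, 0.143 and 0.177. The family calls thus rest on the spread and adjustment of the family fit, not on a larger difference. The miR-140 family, of cartilage, had 16272 and 9361 CPM in the shallow against 22669, 22640 and 25015 in the deep libraries (log2 fold change -0.97, SE 0.29; edgeR adjusted p = 0.0269). Its miR-140-3p stood at -0.99 (SE 0.28), and the scarce miR-140-5p at 0.69 (SE 0.80). The miR-148/miR-152 family, whose members repress the DNA methyltransferase Dnmt1, had 1280 and 1443 CPM against 2734, 2858 and 3616 (-1.14, SE 0.35; adjusted p = 0.0317). All 4 of its tested members were below 0, with miR-148a-3p at -1.38 (SE 0.38) and miR-152-3p at -0.93 (SE 0.42). The miR-503 family, of the X-chromosomal cluster, had a log2 fold change of -1.94 (SE 0.62; adjusted p = 0.0363). With 1 library left out it ranged from -1.13 without freeze-dried replicate 3 to -2.69 without either not freeze-dried library. Its adjusted p was 0.113 without freeze-dried replicate 2, 0.0733 with total counts only and 0.0596 with 10 counts in every library. The miR-148/miR-152 family was not called without not freeze-dried replicate 1 or 2 (adjusted p = 0.166 and 0.191), and the miR-25/miR-92 family not without not freeze-dried replicate 1 (adjusted p = 0.0568). Without freeze-dried replicate 3 none of the 7 was called, and the miR-10 family stood at -3.03.

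**Figure D3:**
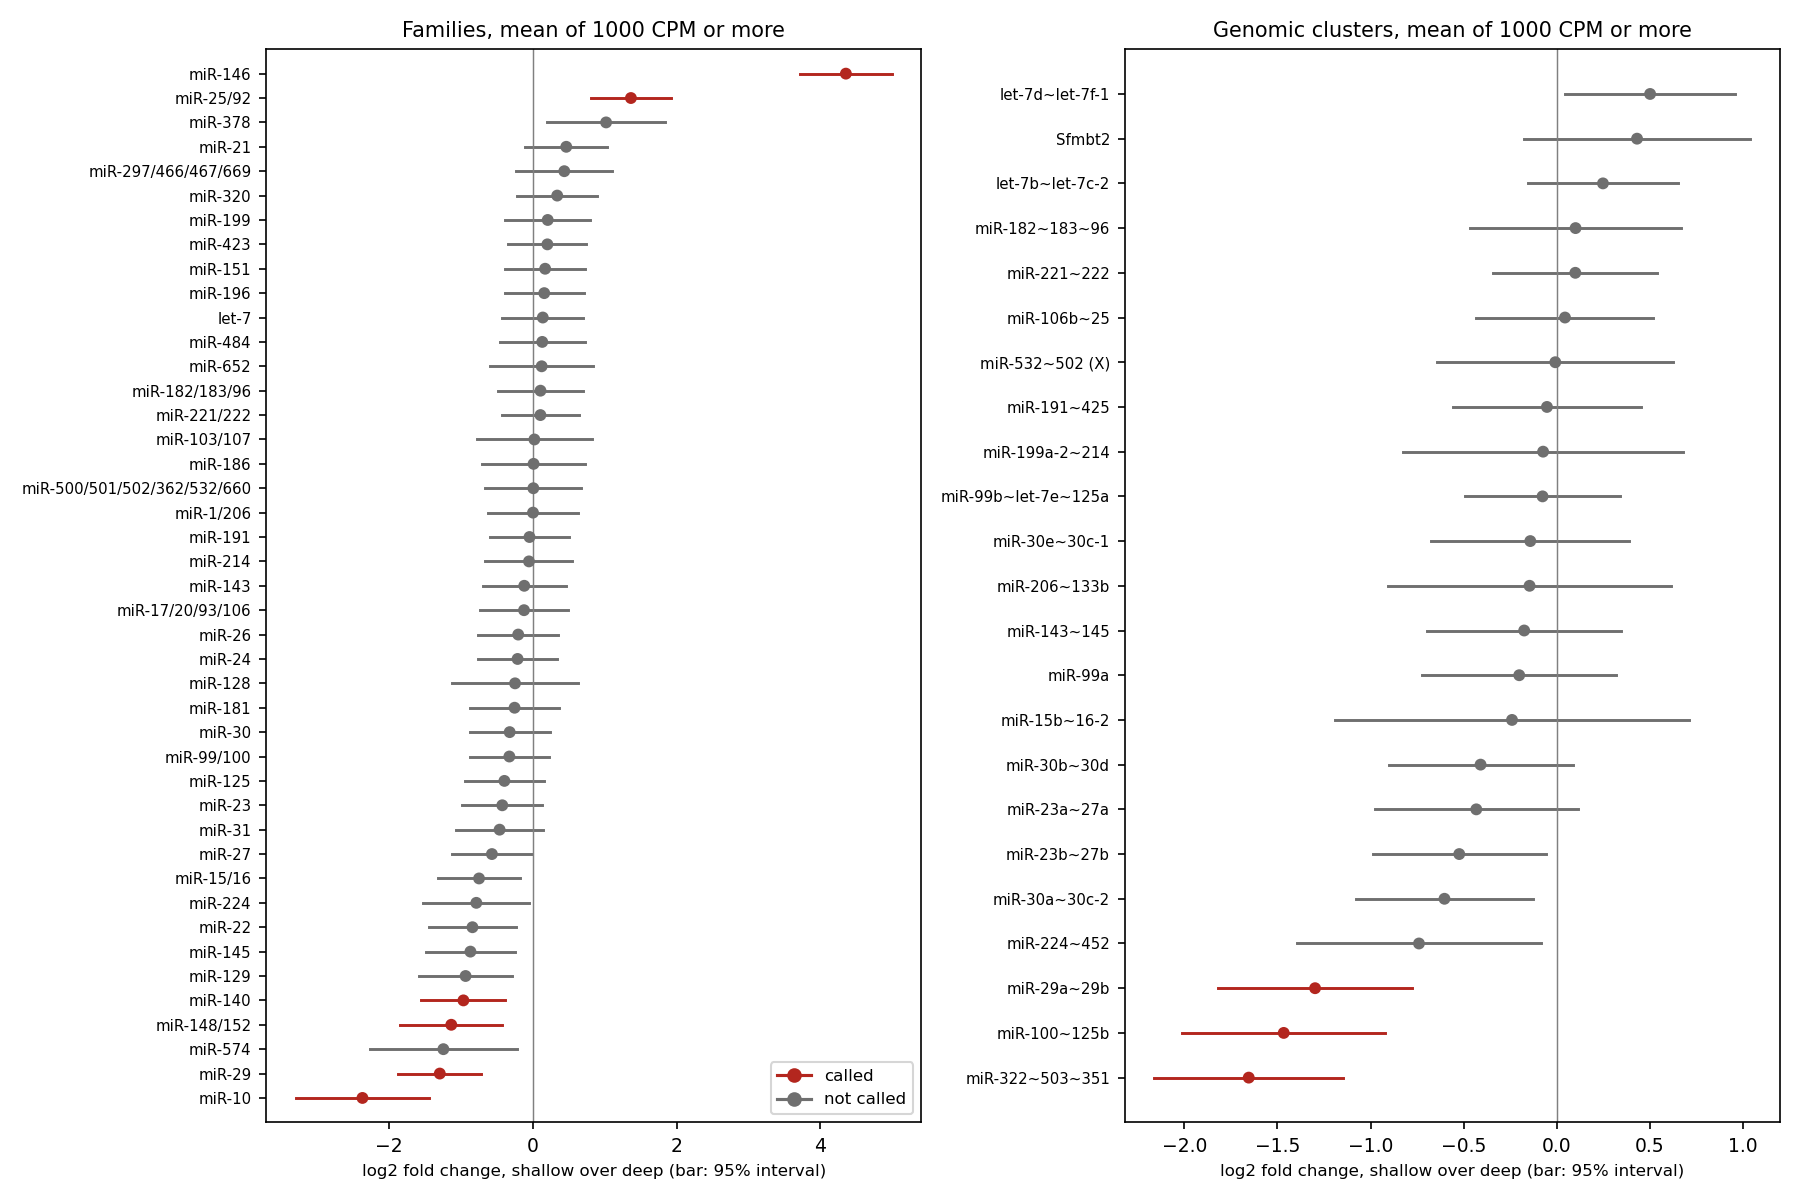
Points are fitted log2 fold changes of shallow over deep libraries (horizontal axis) for the 43 families and 23 clusters with a mean of 1000 CPM or more, and bars are 95% intervals. Red marks called sums: the miR-146 and miR-25/miR-92 families on the higher side, and 4 families and 3 clusters on the lower side.

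The most abundant family, let-7, which promotes differentiation, was not called, nor were the miR-30, miR-125 and miR-99/miR-100 families. The let-7 family took 27.5% and 39.1% of counts in the shallow and 28.8%, 40.0% and 33.5% in the deep libraries. Its fitted log2 difference was 0.14 (SE 0.28, 95% interval -0.43 to 0.70; -0.26 with upper-quartile normalization), and 10 of 16 tested members were above 0 and 6 below, none of them called. The miR-30 family had -0.32 (SE 0.28) with 8 of 9 tested members below 0, the miR-125 family -0.40 (SE 0.27), and the miR-99/miR-100 family -0.33 (SE 0.27). miR-30a-5p stood at -0.55 (SE 0.23) and its other arm miR-30a-3p at -3.35 (SE 1.03), neither of them called.

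Among the 10 miRNAs with the highest mean CPM, miR-92a-3p alone was called. let-7c-5p had 91918 and 155940 CPM in the shallow and 89157, 152990 and 124269 in the deep libraries, so all 3 freeze-dried libraries lay above both not freeze-dried ones and the depth classes overlapped. miR-21a-5p, abundant in mesenchymal cells, differed by 0.49 on the log2 scale (SE 0.29, 95% interval -0.18 to 1.16) and did not overlap between the classes. For 45 miRNAs, all at 1000 CPM or more, the 95% interval of the fold lay within 2-fold in both directions. They included let-7b-5p, miR-143-3p, miR-221-3p and miR-24-3p. The mesenchymal list, which checks the labelled source, had 22 tested members and took 25.7% and 18.9% of counts in the shallow and 21.5% to 26.9% in the deep libraries.

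The late entries lay mostly on the higher side. Of 55 tested, 39 were above 0 and 3 were called higher, with a median log2 fold change of 1.27. These counts include miR-3069-3p, miR-1843b-3p and miR-7210-5p, which passed the count filter only through the shallow libraries, where they are high. The side on which such entries lie was fixed by the filter and is no separate support. Over all 327 tested miRNAs 168 were above 0, 5 were called higher (1.53%) and the median was 0.03. They took 3.25% and 2.49% of counts in the shallow libraries and 0.908%, 0.593% and 0.974% in the deep ones. miR-6240 had 8233 and 6861 CPM against 992, 291 and 777, a fold of 10.7 (log2 3.42, SE 0.42; edgeR adjusted p = 0.00357). miR-6236 had 3741 and 1589 CPM against 55.0, 233 and 165, a fold of 20.9 (log2 4.38, SE 0.75; adjusted p = 0.0167). The adjusted p of miR-6236 was 0.421 with freeze-dried replicate 2 left out, 0.0944 with not freeze-dried replicate 2 left out and 0.283 with freeze-dried replicate 3 left out. Its log2 fold change was 3.01 and 2.92 when the first or second not freeze-dried library was left out, and 5.95 when the shallow freeze-dried one was. Their hairpins lie outside other genes on the same strand, at chr5:114851948-114852064 and chr9:110281287-110281409.

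Other late entries went the same way without passing the test. miR-6538, of 94.7% GC, had 501 and 627 counts in the shallow libraries and 50, 0 and 149 in the deep ones (edgeR adjusted p = 0.411). miR-5126 had 1717 and 1315 CPM against 141, 76.1 and 354 (log2 fold change 3.05, SE 0.72; adjusted p = 0.0734). miR-5100 had 4.28 (SE 1.00) and miR-5108 had 6.10 (SE 1.62). The median GC content of the 49 late entries with a sequence was 56.0%, against 47.8% for the 224 others. Over all 273 the Spearman correlation of GC content and log2 fold change was 0.09, across miRNAs that share the same 5 libraries. No match to miR-6240 or miR-6236, allowing 1 mismatch, was found among GENCODE M21 transcripts other than miRNAs. RNAs absent from that set were not searched, so whether these reads come from a longer RNA was not tested. The part of GC content in these differences was not tested.

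miR-3069-3p was seen in the shallow libraries alone. It had 216 and 190 counts there and 0 in each of the 3 deep libraries, where 0 counts allow a share of up to 0.000329% in not freeze-dried replicate 1, 0.000103% in freeze-dried replicate 1 and 0.000121% in freeze-dried replicate 2. By counting error it was at least 2632-fold higher, against a floor of 3 counts over the deep group. The bound was 1414-fold with freeze-dried replicate 1 left out and 1598-fold with freeze-dried replicate 2 left out. The edgeR adjusted p was 0.00191. It is no separate support, since the miRNA passed the count filter only through the shallow libraries, where it is high. The whole mature sequence printed above lies within Scarna13, at bases 251 to 272 of its 275. Scarna13 is a small Cajal body RNA, a guide for modification of spliceosomal RNAs, in an intron of Snhg10 at the position of the hairpin, chr12:105031077-105031141.

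miR-1843b-3p also lies inside such an RNA, at bases 118 to 137 of Scarna3a. It had 91 and 21 counts in the shallow and 0, 6 and 14 in the deep libraries, without overlap in CPM and without passing the test (log2 fold change 7.35, SE 2.18; edgeR adjusted p = 0.172). Like miR-3069-3p, it passed the count filter only through the shallow libraries, so its direction is no separate support. Of the 273 tested miRNAs with a sequence, the only ones searched, 8 lay inside small nucleolar or Cajal body RNAs by exact match. Of these 3 were above 0, miR-3069-3p and miR-1843b-3p among them, and 5 below. The counts do not tell a miRNA read from a fragment of the longer RNA.

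The same contrast was then read inside each labelled group. The called miRNAs were chosen on these same libraries, so their values in each group are a description and their common direction is no separate support. For miR-146a-5p the CPM ratio was 29.1 in the not freeze-dried and 91.8 in the freeze-dried libraries, and for miR-92a-3p it was 4.02 and 2.75. For miR-322-3p it was 0.240 and 0.250. Over the 89 miRNAs at 1000 CPM or more the log2 ratios of both groups had a Pearson correlation of 0.89 and a Spearman correlation of 0.67, with the same sign for 62 miRNAs, or 69.7%. Between 100 and 1000 CPM Pearson's r was 0.32, with the same sign for 55 of 104 miRNAs. Below 100 CPM it was 0.09, with the same sign for 56 of 134. Over all 327 tested miRNAs the sign was the same for 173, or 52.9%. These are descriptions across miRNAs, which share the libraries of each ratio.

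**Figure D4:**
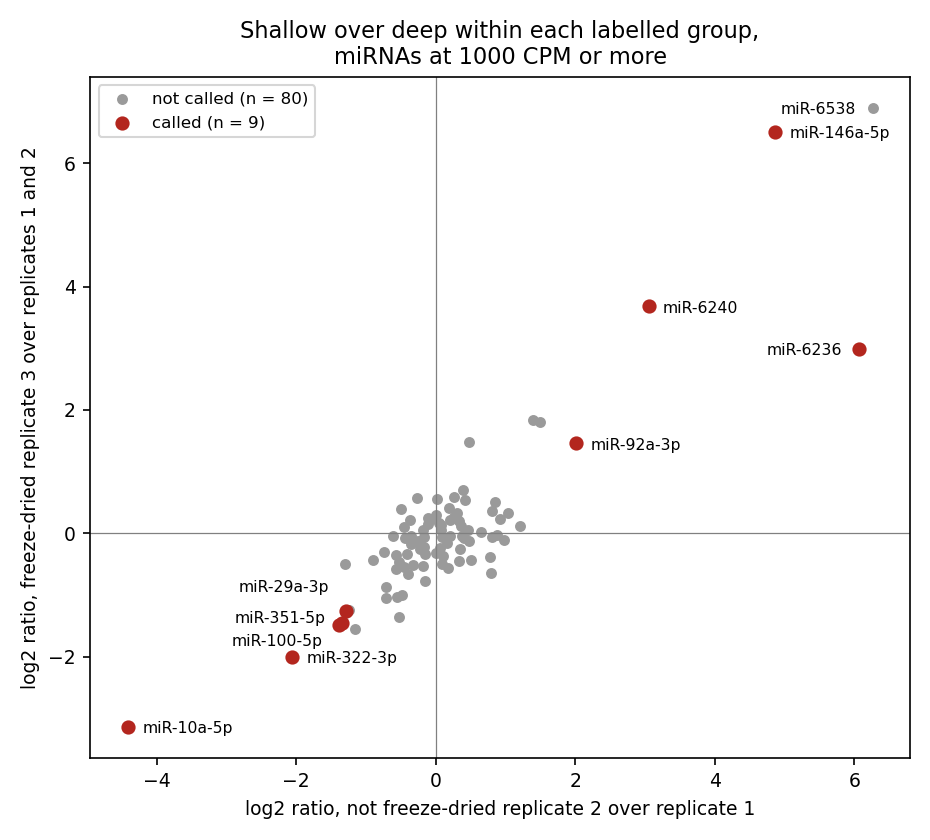
Each point is 1 of 89 miRNAs at 1000 CPM or more, with the log2 CPM ratio of not freeze-dried replicate 2 over replicate 1 (horizontal axis) and of freeze-dried replicate 3 over replicates 1 and 2 (vertical axis). The 9 called miRNAs in red lie at the upper right and lower left, and most other miRNAs lie near the origin.

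A product term asked whether the depth difference was itself of another size in dried EVs. By edgeR it was called for 0 of 327 miRNAs (11 at an unadjusted p under 0.05, lowest adjusted p 0.863), and DESeq2 called 1. That fit leaves 1 residual degree of freedom, so a difference could pass unseen. In the freeze-dried libraries alone, a choice made after seeing the data, the shallow arm is freeze-dried replicate 3 by itself, its spread taken from the deep libraries, and that library also entered the first fit. There 15 of 230 tested miRNAs were called, or 6.52%, with 8 of the 10 called miRNAs among them, which describes that library and is no separate support. miR-29a-3p was not called (adjusted p = 0.102), and miR-3069-3p could not be tested there.

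**Figure D5:**
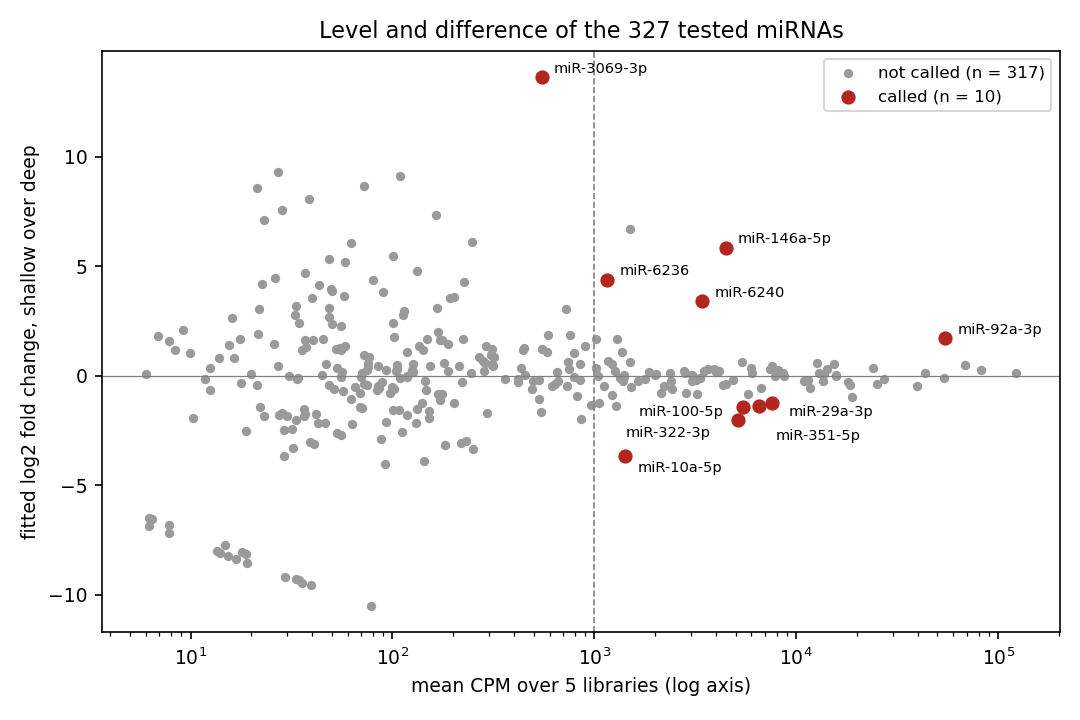
Points show mean CPM (horizontal log axis) and fitted log2 fold change of shallow over deep libraries (vertical axis) for all 327 tested miRNAs, with the 10 called ones in red. The points spread widely to the left of the dashed line at 1000 CPM, and 9 of the 10 called miRNAs lie to the right of it. The highest point, miR-3069-3p, had 0 counts in the deep libraries, so its fitted value depends on the prior count.

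Calls were more frequent at high abundance. Of 89 miRNAs at 1000 CPM or more 9 were called, of 104 between 100 and 1000 CPM 1 was called, and of 134 below 100 CPM none was. The median SE on the log2 scale was 0.28, 1.17 and 3.47 in these classes. A single count was worth 7.60 CPM in the shallowest and 0.343 CPM in the deepest library.

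To give every library the same total, all were thinned to 131507 counts in 20 seeded draws and fitted again. Thinning equalises counting error and keeps the expected share of each miRNA. The draws come from the same 5 libraries, so repeated calls are no separate support. All 10 called miRNAs were called in each of the 20 draws, and miR-6538 was called in each as well. The median number of calls was 14 higher (6 to 17) and 9 lower (5 to 11), among 229 to 237 tested. miR-5100 and miR-5126 were called in 18 draws, miR-146b-5p, miR-92b-3p and miR-5108 in 17, miR-140-3p in 16, and miR-148a-3p and miR-503-5p in 15. After thinning the median log2 fold changes of miR-146a-5p, miR-92a-3p and miR-10a-5p were 5.82, 1.69 and -3.69. Against the unthinned 5.85, 1.70 and -3.65, thinning changed these values little. The fitted value of miR-3069-3p, with 0 counts in the deep libraries, fell from 13.6 to 10.4. The 3 called clusters and 6 of the 7 called families were called in each draw, and the miR-503 family in 19.

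The number of miRNAs seen overlapped between the classes once depth was equal. At 131507 counts, 219 and 204.6 miRNAs were expected to reach 10 counts in the shallow libraries, and 210.6, 194.2 and 205.0 in the deep ones (exact two-sided permutation p = 0.6, smallest possible 0.2). At their own depth the libraries had 219 and 221 against 290, 346 and 305.

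Calls rested on single libraries to differing degrees. With either not freeze-dried library left out, the freeze-drying term takes up the other, and the depth difference is that of freeze-dried replicate 3 alone against freeze-dried replicates 1 and 2. Without not freeze-dried replicate 1, miR-146a-5p, miR-3069-3p and miR-6236 were called and the other 7 were not. Without not freeze-dried replicate 2, miR-146a-5p and miR-3069-3p were. Without freeze-dried replicate 3, where the depth difference is that of not freeze-dried replicate 2 against 1, 0 miRNAs were called by edgeR (26 at an unadjusted p under 0.05, lowest adjusted p 0.283). Removal of freeze-dried replicate 1 gave 25 calls and that of freeze-dried replicate 2 gave 16, and 9 of the 10 were among them each time. Where 1 library made up the shallow arm, its spread was taken to be that of the remaining libraries. The called miRNAs that could be tested kept their direction in these fits, which their choice largely fixed.

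Each list of markers of other cell types took at most 0.669% of a library. Striated muscle miRNAs took 0.328% and 0.402% of counts in the shallow and 0.326% to 0.479% in the deep libraries, with 3 of 4 tested members below 0. The red cell list, which holds the miR-486 cluster, took 0.120% and 0.170% of counts in the shallow and 0.0758% to 0.0973% in the deep libraries, with 3 of 3 tested members above 0. Most of that was the miR-486 cluster, at 0.102% and 0.140% in the shallow and 0.0488% to 0.0728% in the deep libraries. miR-451a of the same list overlapped between the classes, at 0.0183% and 0.0301% against 0.0216% to 0.0270%. Neural miRNAs took 0.338% and 0.337% against 0.544% to 0.669%, with 5 of 6 members below 0. The hepatocyte, endothelial and epithelial lists took at most 0.0806%, 0.0403% and 0.0753% of a library, and miR-200c-3p and miR-141-3p had 0 counts in all 5. No member of these lists was called, and their part in the differences was not tested.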

How the data were processed

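Small RNA of vesicles was sequenced in 5 libraries, 2 not freeze-dried and 3 freeze-dried. The authors deposited 1 table of raw read counts for mature miRNAs with 1966 rows, 517 of them holding a count. Tools in the submitters' processing notes, given there without roles or order, are Bowtie 1.1.2, cutadapt 2.3, featureCounts 1.5.0-p1, FastQC and bcl2fastq 2.20, and the build is GRCm38. Not given in the sources used here are the miRNA annotation release and how reads with several matches, strand and duplicates were handled. Column headers are sample numbers and were matched to the numbers in the labels.

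The members and lists were chosen with earlier results of these data known, and the depth classes with the leading difference among libraries in view. Under R 4.3.3, edgeR 4.0.16 fitted the counts, with TMM factors, filterByExpr by freeze-drying and its robust quasi-likelihood F test, on depth class plus freeze-drying, with Benjamini-Hochberg adjustment over all features tested and a threshold of 0.05. The direction is shallow minus deep. The same was done on sums per family, grouped by miRNA name over both arms, and per genomic cluster. DESeq2 1.42.0, limma 3.58.1, other normalizations, filters, designs and the removal of each library were alternatives. Thinning was done without replacement in R. Detection expected at equal depth, exact permutation and binomial intervals were computed in Python 3.11.15 with scipy 1.17.1. Total counts ran from 131507 to 2914305, and intervals and floors of 3 counts cover counting error only, since reads are not independent molecules. The fitting functions were checked on simulated data.

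miRNAs named were the 10 of highest mean CPM, the called ones, the 5 of smallest unadjusted p in each direction, and the called or most abundant members of each list. Relatives of called miRNAs by seed or hairpin, cluster neighbours, and late entries inside small nucleolar or Cajal body RNAs were named after their values had been seen. Hairpin positions and host genes are from GENCODE M21 (GRCm38).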

Additional observations from a re-analysis of the deposited data

How the results depend on the processing

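The called miRNAs kept their direction under every alternative in which they were tested, which their choice largely fixed. Numbers of miRNAs called higher and lower were 16 and 11 with DESeq2, 3 and 0 with limma-voom, 13 and 10 with no count filter, and 8 and 5 with 10 counts in every library. They were 12 and 6 with no freeze-drying term, 5 and 10 with upper-quartile normalization, 2 and 5 without late entries, 9 and 6 in the freeze-dried libraries alone, and 14 and 9 after thinning. Leaving out 1 library gave 0 to 14 higher and 0 to 11 lower miRNAs, 0 to 2 higher and 0 to 11 lower families, and 0 to 5 lower clusters. Families called lower were 9 with RLE or DESeq2, 14 with upper-quartile normalization, 0 with limma-voom, 8 with 10 counts in every library or after thinning, and 0 in the freeze-dried libraries alone, where 0 were higher. limma-voom called 1 cluster, and DESeq2 called 1 miRNA for the product term.

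A replicate block together with freeze-drying and depth leaves no residual degree of freedom, so the replicate number stood in place of the freeze-drying term. Within replicate numbers only not freeze-dried replicate 2 and freeze-dried replicate 2 differ in depth class, so that fit compares these 2 libraries, which differ in freeze-drying as well, on 1 residual degree of freedom, and its lost calls and turned signs do not bear on depth alone. That block left 0 miRNAs (29 at an unadjusted p under 0.05), 0 families and 0 clusters called, with lowest adjusted p of 0.301, 0.0655 and 0.507. The labels do not say that a number pairs samples. Under the block let-7b-5p, let-7c-5p, miR-320-3p and the let-7 family turned to -0.44, -0.44, -0.72 and -0.19, and let-7f-5p, miR-143-3p, miR-99a-5p, miR-99b-5p and the miR-99/miR-100 family to 0.13, 0.66, 0.40, 0.50 and 0.31.

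Other turns in log2 fold change concerned uncalled miRNAs near 0. With upper-quartile normalization let-7a-5p, let-7b-5p, let-7c-5p, miR-25-3p, miR-320-3p and the let-7 family stood at -0.31, -0.13, -0.28, -0.26, -0.041 and -0.26. With total counts only let-7a-5p, let-7c-5p and miR-25-3p stood at -0.028, -0.022 and -0.00206, and with no count filter at -0.044, -0.031 and -0.00931. With no freeze-drying term miR-143-3p and miR-99b-5p stood at 0.10 and 0.071, and in the freeze-dried libraries alone miR-25-3p at -0.038. Leaving out 1 library at a time gave log2 fold changes of -0.21 to 0.33 for let-7a-5p, -0.097 to 0.18 for let-7c-5p, -0.51 to 0.14 for let-7f-5p, -0.53 to 0.20 for miR-143-3p, -0.14 to 0.26 for miR-25-3p, -0.13 to 0.57 for miR-320-3p, -0.23 to 0.017 for miR-99b-5p and -0.096 to 0.14 for the let-7 family. Detected miRNAs, shallow minus deep, turned from 8.55 to -3.44 at 3 counts, -93.7 without thinning and -6.18 without late entries, and were 1.37 to 15.7 with 1 library left out. The cause of these changes was not tested.

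The 134 tested miRNAs below 100 CPM had SEs of log2 fold change with a median of 3.47. Without either shallow library, without not freeze-dried replicate 1 and in the freeze-dried libraries alone, the depth difference rests on 1 shallow library, assumed to vary like the others.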

Other observations

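Of 71 hairpins with both arms tested, the log2 fold changes of the arms had the same sign in 44, or 62.0%, and no hairpin had both arms called. Where both arms reached 1000 CPM, 4 of 5 hairpins had the same sign. Arms named 5p were above 0 in 87 of 151 cases and arms named 3p in 60 of 145. The ratio of miR-140-3p to miR-140-5p was 59.7 and 19.9 in the shallow and 107, 131 and 81.6 in the deep libraries, without overlap.

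Between pairs of libraries, Spearman correlations over the 89 miRNAs at 1000 CPM or more were 0.943 to 0.958 within a depth class and 0.811 to 0.840 across classes. The classes were set after these libraries were known to stand apart, so this order is a description and no separate support. The pair of not freeze-dried libraries, which fall in different classes, had 0.820.

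Of the 1966 rows, 7 had counts in both shallow and in no deep library, and 9 in all deep and in no shallow library. On the shallow side miR-3069-3p was followed by miR-183-3p, the scarce arm of a miRNA of sensory cells, with 11 and 9 counts. On the deep side miR-350-5p had 187, 474 and 95 counts, at least 13.0-fold higher there, against a floor of 3 counts over the shallow group. The bound was 7.7-fold without not freeze-dried replicate 2 and 5.26-fold without freeze-dried replicate 3. The passenger arms miR-23b-5p and miR-27b-5p, from the miR-23b~miR-27b cluster, had 79, 90 and 145 and 80, 73 and 172 counts there, at least 5.38-fold and 5.57-fold higher. Those bounds were 3.2-fold and 3.31-fold without not freeze-dried replicate 2, and 2.18-fold and 2.26-fold without freeze-dried replicate 3. These miRNAs were chosen after their values were seen.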
